A study of Mus musculus with 12 samples.

Results

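The regions described here are the sites bound by ESRRB at the ends of protein-coding genes in both of 2 mouse embryonic stem cell lines. A region of the deposited count table was taken where it overlapped, by at least 1 bp, a peak in the deposited list of each line and had its centre within 1 kb of either end of a RefSeq protein-coding gene span. This gave 4145 regions, which were 4.81% of the 86201 regions counted and 12.7% of the 32615 regions found in both lists. The peak lists came from the same libraries as the counts, so peak height in both lines chose the regions, and their counts of higher and lower signal are a description. The line called NanogKO:Esrrb (44J) in the labels is written here as the line without Nanog, and the line called NanogKO:Esrrb:Nanog (44JN) as the line with Nanog. Every sample carries the same cell line label, N{delta}:cE:iN, the label ESC for cell type, serum and LIF as growth medium, and no treatment. How Nanog was put back, and whether a library came from chromatin fixed once with formaldehyde or fixed a second time, is not given per sample in the labels. ChIP with an ESRRB antibody was sequenced from 3 libraries per line, and the 6 input libraries are not part of the count table and were not used here, so no signal below is set against input. Nothing in the labels says that the 3 libraries of a line were grown as separate cultures, and p-values therefore reflect how far these libraries vary, which can be technical variation. A count of ESRRB binding does not report expression, so the ESC label could not be checked against marker genes.

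ESRRB, a nuclear receptor with no known natural ligand, belongs to the estrogen-related receptor family and is one of the factors of the naive pluripotency network in mouse embryonic stem cells, where NANOG activates its gene. Receptors of this family bind DNA as monomers or dimers at a nuclear receptor core site that carries an extension of 3 bases on its 5′ side, the estrogen-related receptor (ERR) element. The related receptors ESRRA and ESRRG are known as regulators of mitochondrial and energy metabolism genes, many of which they bind close to the start.

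To show the letters under some of these regions, the 300-base promoter windows of RefSeq (250 bases before each start and 50 after, GRCm38.p6, which is mm10) were searched on both strands. Windows were given for 17492 of the 21900 protein-coding genes. The exact ERR element, TCAAGGTCA, contains the extended site TNAAGGTCA, which contains the core site AGGTCA, so the 3 counts overlap. The exact element lay in a window overlapping 17 of the gene-end regions. All 5 of these regions whose signal was lower with Nanog in the test described below, and 5 of the 12 others, are printed with 10 bases on each side, 5′ to 3′ with the element in capitals. They were chosen after their values were seen, to cover both outcomes.
Clec2d, chr6:129180491-129180519, minus strand: gaaacgcattTCAAGGTCAggagccacac
Hcn2, chr10:79716456-79716484, minus strand: gcaagcaggcTCAAGGTCAgtcagcccct
Nfkbid, chr7:30421582-30421610, plus strand: atgacactctTCAAGGTCAgcccctccca
Tesk1, chr4:43442215-43442243, minus strand: actcctccccTCAAGGTCAtcgggaaggt
Timm8b, chr9:50603795-50603823, plus strand: tttcgagggcTCAAGGTCActctacaacc
Msrb2, chr2:19371507-19371535, plus strand: tccgcgaagaTCAAGGTCAagaggagcaa
Mtrf1l, chr10:5824133-5824161, minus strand: actcgctatcTCAAGGTCAcgcctaggca
Psap, chr10:60277469-60277497, minus strand: ggtgattaaaTCAAGGTCAggcgccgaac
Psmc3ip, chr11:101095655-101095683, minus strand: cgggtttagcTCAAGGTCAcgagtgctca
Oxt, chr2:130575993-130576021, minus strand: tgggctagggTCAAGGTCAtcgtctctgc
The sites began between 238 bases (Psmc3ip) and 52 bases (Tesk1) before the start of the gene. The Timm8b site, 96 bases before that start, lies in the interval shared with Sdhd, whose RefSeq span covers it. Timm8b encodes a chaperone of mitochondrial protein import and Sdhd a membrane subunit of succinate dehydrogenase.

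Longer stretches are shown for 4 genes whose windows hold a core site or extended site and lie outside every RefSeq gene span. They are the 250 bases before the most upstream start of a gene, 5′ to 3′ on the strand of the gene, with core sites and extended sites in capitals. Eno1 (the glycolytic enzyme enolase) was named by the strength of its region, Sdhb (a catalytic subunit of succinate dehydrogenase) through the oxidative phosphorylation list and Nanog as one of the core network genes looked up by name, while Ndufb4 (an accessory subunit of respiratory complex I) was chosen after its values were seen because it holds an extended site.
Eno1, chr4:150236458-150236707, plus strand: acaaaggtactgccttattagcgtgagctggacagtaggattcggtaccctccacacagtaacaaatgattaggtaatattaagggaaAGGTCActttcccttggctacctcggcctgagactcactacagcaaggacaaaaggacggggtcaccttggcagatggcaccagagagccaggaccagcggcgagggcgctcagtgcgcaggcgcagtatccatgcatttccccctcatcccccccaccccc
Sdhb, chr4:140961021-140961270, plus strand: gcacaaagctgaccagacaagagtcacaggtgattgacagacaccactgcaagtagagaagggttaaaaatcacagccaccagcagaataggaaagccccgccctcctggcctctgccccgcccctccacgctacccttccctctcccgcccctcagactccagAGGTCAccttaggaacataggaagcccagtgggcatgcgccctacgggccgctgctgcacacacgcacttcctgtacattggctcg
Nanog, chr6:122707239-122707488, plus strand: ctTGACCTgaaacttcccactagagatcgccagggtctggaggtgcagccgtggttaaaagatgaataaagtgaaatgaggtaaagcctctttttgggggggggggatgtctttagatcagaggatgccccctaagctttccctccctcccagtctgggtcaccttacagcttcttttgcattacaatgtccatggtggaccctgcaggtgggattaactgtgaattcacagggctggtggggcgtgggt
Ndufb4, chr16:37654369-37654618, minus strand: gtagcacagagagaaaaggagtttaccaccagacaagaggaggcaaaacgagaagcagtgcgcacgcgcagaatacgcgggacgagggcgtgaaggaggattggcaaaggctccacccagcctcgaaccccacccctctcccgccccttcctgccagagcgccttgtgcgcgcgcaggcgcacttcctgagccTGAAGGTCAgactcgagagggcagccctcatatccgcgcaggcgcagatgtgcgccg
The extended site of Ndufb4 began 57 bases before the start, on the strand of the gene. A match of letters is a description and not a measured binding site, and a window without one says only that the letters are not in those bases.

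Promoter windows that overlapped a gene-end region numbered 2356, from 2118 genes. They were rich in CpG: 74.2% met a GC content of at least 50% with an observed over expected CpG ratio of at least 0.6, against 45.2% of all 21263 windows. The exact ERR element was in 19 of them (0.81%), against 0.33% of all windows. It was in 8 (0.30%) of the 2691 windows that overlapped a gene-end region listed with Nanog alone. The extended site was in 1.87%, against 1.03% of all windows and 0.85% of the windows of regions listed with Nanog alone. The core site was in 20.4%, against 14.7% and 14.8%. In these 3 receptor motifs the windows of regions found in both lists were above both other sets, while in CpG content they were level with the 73.8% of windows of regions listed with Nanog alone. Regions listed with Nanog alone were also weaker, as described below, so the contrast is not at equal signal. When windows of regions in both lists were ranked by signal, the strongest of 4 groups held the exact element in 1.53% and the weakest in 0.68%. The core site was in 23.4% and 19.9%, and the extended site in 2.21% of each.

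Motifs of general promoter factors were counted in the same way. The GC box GGGCGG (SP and KLF factors) was in 68.6% of the windows, against 70.5% for regions listed with Nanog alone and 38.9% for windows that overlapped neither kind. The NRF1 core GCGCATGC was in 6.20%, against 6.06% and 2.71%, and the ETS site CCGGAAGT in 9.13%, against 8.73% and 3.97%. The YY1 core AAGATGGCG was in 4.08%, against 2.56% and 1.39%. The octamer ATGCAAAT, read by POU factors such as OCT4, and the SOX site ACAATGG were less frequent than in all windows, at 1.36% against 1.66% and 2.08% against 2.92%. Windows of regions listed with Nanog alone were low as well, at 1.375% and 1.82%. The CCAAT box (NF-Y) differed little, at 39.0% against 38.2% of all windows. None of these shares was tested.

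**Figure D1:**
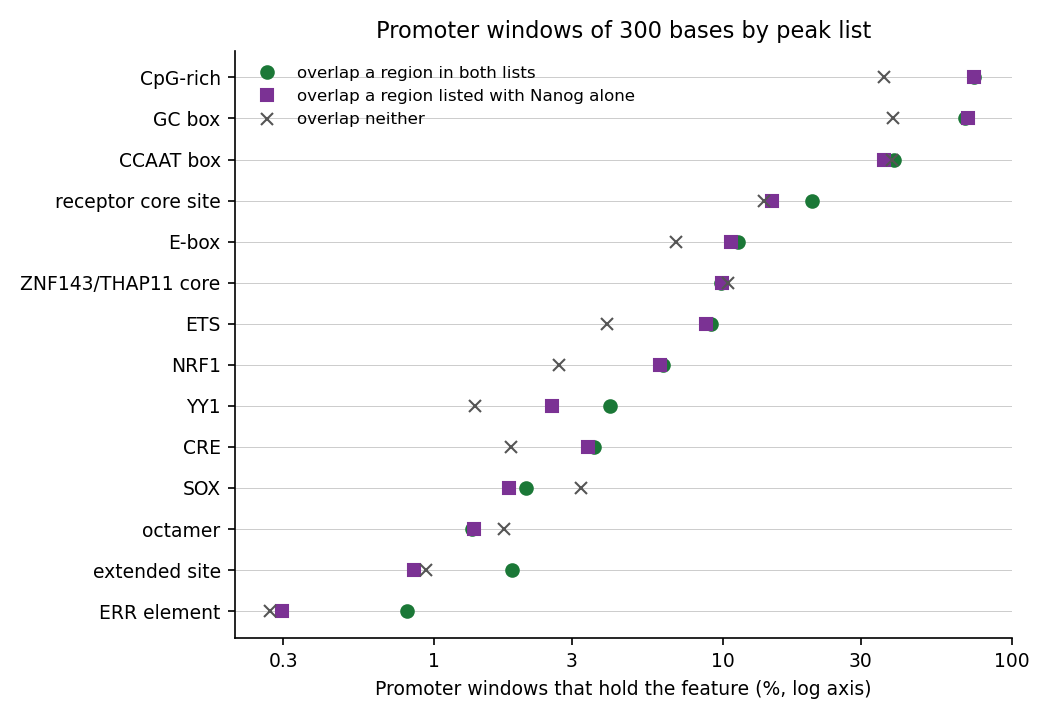
Percent of 300-base promoter windows (log axis) that are CpG-rich or hold a motif on either strand, for windows that overlap a gene-end region in both peak lists (circles), one listed with Nanog alone (squares) or neither (crosses). The circles stand apart from the squares at the ERR element (0.81% against 0.30%), the extended site, the core site and YY1.

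The library totals over all regions ran from 2734338 to 5193707 counts without Nanog and from 6689166 to 8382646 with Nanog, so the line with Nanog was the more deeply read in every library. All 4145 gene-end regions passed the filter on low counts, as did 84892 of all 86201 regions, and none had a count of 0 in any library. The median gene-end region had from 52 to 96 counts per library without Nanog and from 131 to 151 with Nanog. No pair of libraries of the same line differed by less than sampling noise, and pairs across the lines were not checked.

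Gene-end regions lay near 4312 genes, 19.7% of the protein-coding genes. At 353 genes there were 2 or more such regions and at 15 genes 3 or more, while 526 regions lay near the ends of 2 or more genes. Strand was known for enough genes to place 2762 regions within 1 kb of a start and 632 within 1 kb of a 3′ end only, which left 751 with the side unknown. Around starts the centres were spread evenly over both sides, with 1306 upstream and 1456 inside the gene. Compared with the 28470 regions of both lists that lay farther from gene ends, gene-end regions were wider, with a median of 654 bp against 509 bp, and had a higher median signal, 18.5 against 14.95 CPM (counts scaled by library total, TMM-adjusted). Per kilobase the medians were 27.4 and 28.4 CPM. Of the 842 regions of both lists among the strongest 1% of all regions, 122 were at gene ends.

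A smaller share of the gene-end regions passed the test between the lines than of the regions farther away. With edgeR's quasi-likelihood test over all regions and a Benjamini-Hochberg adjusted p under 0.05, 124 gene-end regions were higher with Nanog, 469 were lower and 3552 did not pass. Passing that threshold is written below as called. Over all regions tested 19.2% were called, 9.42% higher and 9.78% lower. Among gene-end regions 14.3% were called, 2.99% higher and 11.3% lower, while among the regions of both lists farther from gene ends 30.2% were called, with 2289 higher and 6309 lower. The gap between those 2 shares, 15.9 percentage points, was not itself tested, and it lay between 10.8 and 18 points under every scaling, filter, distance, overlap, depth and left-out library tried. The libraries of the lines did not overlap at 1243 gene-end regions (29.99%), against 33.8% over all regions tested. Changes were also smaller near gene ends: the median absolute log2 fold change was 0.20, against 0.35 farther away, with median standard errors of 0.18 and 0.20. Of the 4145 gene-end regions, 12 were called and at least 2-fold higher and 37 were called and at least 2-fold lower. A change of at least 2-fold in either direction, called or not, was seen at 1.18% of gene-end regions and 4.61% of those farther away. Over all 84892 regions tested, 3720 (4.38%) were called and at least 2-fold higher and 1773 (2.09%) lower.

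The balance of higher against lower calls depended on the scaling. The median log2 fold change of gene-end regions, with Nanog over without, was −0.09 (quartiles −0.29 and 0.10) under TMM scaling on all regions, where the median of all regions was −0.01. With TMM factors from the regions of both lists alone, all regions moved up to a median of 0.15, the gene-end median turned to 0.08, and 344 gene-end regions were called higher and 198 lower. Relative to the regions of both lists farther from gene ends, the gene-end median was 0.12 higher under both of these scalings and under column totals, a loess offset and DESeq2. Single libraries moved the counts too: without library B of the line with Nanog 74 were called higher and 225 lower, without its library A 79 and 305, and without its library C 78 and 290. Without library A of the line without Nanog 106 were called higher and 287 lower, and without its library C 87 and 281. The share of reads in regions of both lists that fell at gene ends was 14.7%, 13.7% and 14.5% in the libraries without Nanog and 15.2%, 14.1% and 14.1% in those with Nanog. These values overlapped, with means of 14.3% ± 0.50 and 14.5% ± 0.64 (SD, n = 3 each).

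The share called was larger at greater distances from the gene end. It was 8.84% of the 588 regions centred within 100 bp, 11.8% of 893 from 100 to 250 bp, 13.9% of 1232 from 250 to 500 bp and 18.5% of 1432 from 500 to 1000 bp. At the edge of the rule, 21.3% of the 503 regions from 800 to 1000 bp were called and 24.7% of the 446 regions of both lists from 1000 to 1200 bp, both with a median log2 fold change of −0.15. Gene starts and 3′ ends differed in the same way: 12.1% of the regions at starts were called (61 higher, 274 lower), against 24.4% of those at 3′ ends only (39 higher, 115 lower). The median absolute log2 fold change was 0.18 at starts and 0.30 at 3′ ends only. Regions within 1 kb of 2 or more gene starts, as at divergent promoters, had 8.99% of 267 called. When regions of both lists were split into 4 equal groups by mean signal, the gene-end share was the smaller in each: 13.97% against 27.2% in the weakest group, 9.34% against 24.4%, 10.2% against 31.3% and 21.9% against 38.5% in the strongest. In the weakest group nearly all calls were lower, with 1 higher and 88 lower at gene ends and 23 and 2019 farther away. In the third group they were 44 and 81 at gene ends and 875 and 1296 farther away. Every region here had to have a peak in the shallower libraries without Nanog, which weighs most on weak regions. These shares and counts describe regions chosen by their peaks and were not tested.

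**Figure D2:**
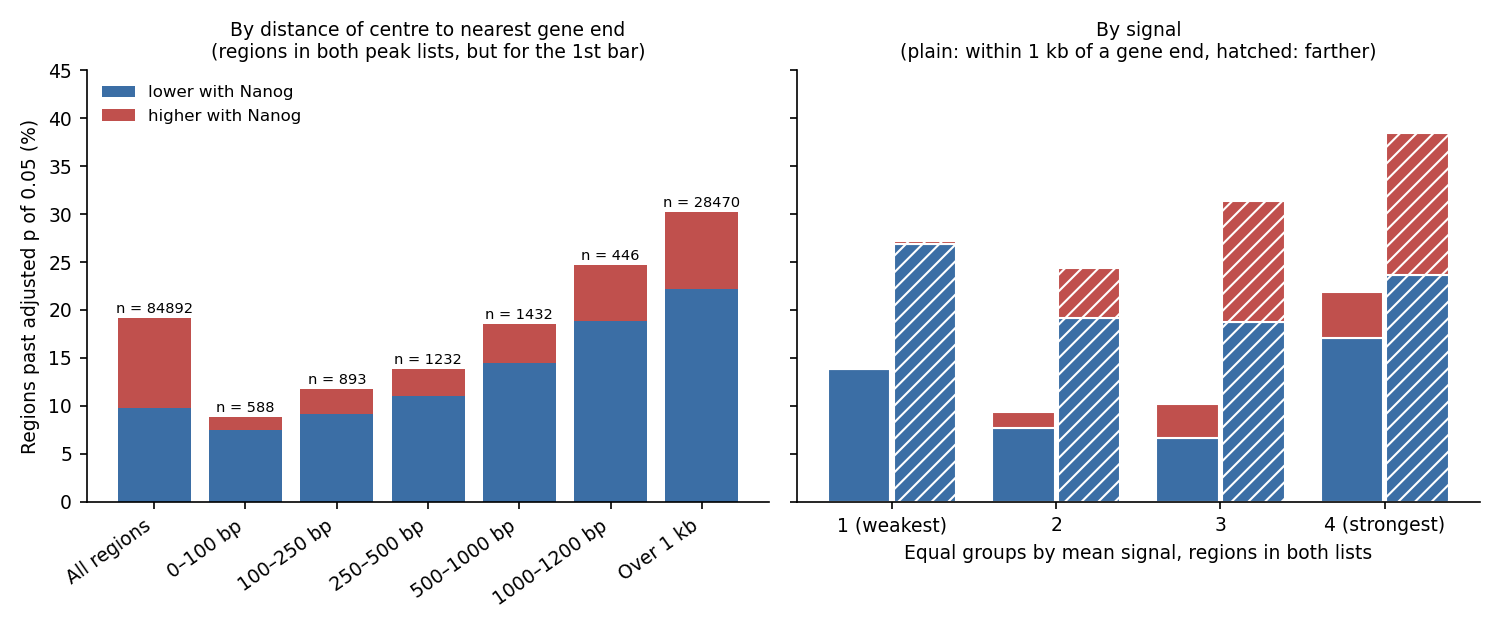
Left, percent of regions called lower (blue) and higher (red) with Nanog, for all regions and for regions in both peak lists by distance of the centre to the nearest gene end. Right, the same within 4 equal groups of mean signal, for regions within 1 kb of a gene end (plain) and farther away (hatched): the share called rises from 8.84% within 100 bp to 30.2% beyond 1 kb, and the plain bar is the lower of each pair.

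**Figure D3:**
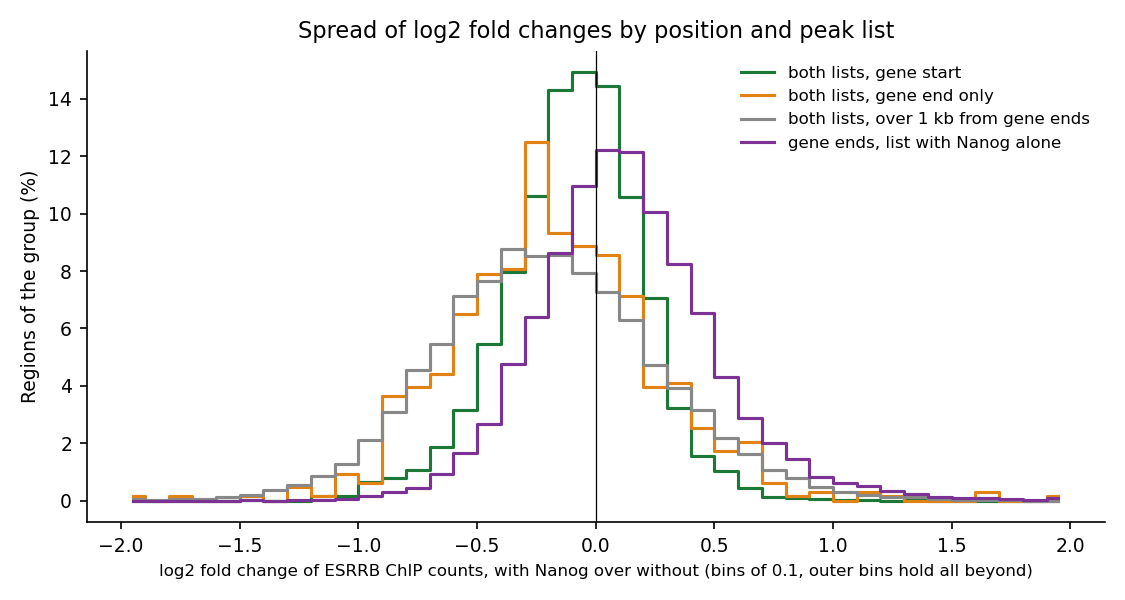
Percent of regions in each 0.1-wide bin of log2 fold change, with Nanog over without, under TMM scaling on all regions. Regions at gene starts (median −0.08) form the narrowest curve, regions at 3′ ends only (median −0.20) and those over 1 kb away (median −0.21) are broader, and gene-end regions listed with Nanog alone lie to the right (median 0.11).

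The other 7357 gene-end regions of the with-Nanog list, those absent from the list without Nanog, were weaker, with a median of 4.95 CPM against 18.5 CPM. Of the 7014 tested, 304 (4.33%) were called higher and 41 (0.58%) lower. Both shares were below the 9.42% and 9.78% of all regions tested. The 2 sets of gene-end regions had opposite balances under TMM scaling on all regions. They were separated by presence in the list without Nanog, which came from libraries also counted here. Absence from that list favours regions low without Nanog, so the choice of regions itself favours the direction of this contrast. Members with the exact ERR element in an overlapping window numbered 17, of which 0 were called higher and 5 lower, with a median log2 fold change of −0.23 and a median of 27.8 CPM. The 1935 with at least 1 window lacking the element, which can include some of those 17, had a median of −0.06 and 22.3 CPM, and 10.5% were called. At the region of the Clec2d site printed above, the gene of an NK cell receptor ligand, signal went from 55.0 ± 9.29 to 35.8 ± 1.18 CPM (SD, n = 3 each), a log2 fold change of −0.63 ± 0.13 (SE), and at Mtrf1l, a mitochondrial translation release factor, it was 37.2 ± 3.05 and 37.3 ± 6.59 CPM.

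The 10 strongest gene-end regions, 1 per gene, included regions called lower and regions not called. At Upp1, which encodes uridine phosphorylase, the region at chr11:9115067-9119046 held 352, 328 and 348 CPM in the libraries without Nanog and 264, 255 and 271 CPM in those with Nanog. The libraries did not overlap, and the log2 fold change was −0.38 ± 0.08 (SE; adjusted p = 0.00105, edgeR quasi-likelihood test). With a loess offset on mean signal it was −0.08 and not called. At Eno1 the region at chr4:150235656-150237362, whose promoter is printed above, held 223, 170 and 180 CPM without Nanog and 134, 110 and 129 CPM with Nanog. All 3 libraries with Nanog were below all 3 without, with a log2 fold change of −0.62 ± 0.10 (adjusted p = 9.3e-05). Mllt6, a chromatin factor of the AF10 and AF17 family, had the next highest signal after Upp1, at 287 ± 42.6 and 239 ± 22.5 CPM (SD, n = 3 each), and was not called (log2 fold change −0.27 ± 0.10, adjusted p = 0.0506).

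Several of the strongest regions were not called. At Tdgf1, the gene of the NODAL co-receptor CRIPTO, the region at chr9:110945555-110948541 held 188, 171 and 172 CPM without Nanog and 186, 179 and 175 CPM with Nanog. These values overlapped, with a log2 fold change of 0.02 ± 0.09, although a loess offset moved it to 0.25 and called it higher. Mcl1, an anti-apoptotic BCL2 family member, had 164 ± 5.12 and 157 ± 4.70 CPM at a region beyond its 3′ end (log2 fold change −0.07 ± 0.09). Akap1, an anchor of protein kinase A on mitochondria, had 201 ± 10.3 and 182 ± 7.58 CPM, and Pde8a, a cAMP phosphodiesterase, 173 ± 8.02 and 151 ± 11.9 CPM. The libraries with Nanog were all below those without at both genes, and neither was called, although a replicate block called Pde8a lower. The strongest region at the glycolytic gene Gapdh had 173 ± 16.3 and 152 ± 14.3 CPM (adjusted p = 0.178). The region shared by Haus1 and Atp5a1, the latter the alpha subunit of ATP synthase, had 212 ± 16.97 and 173 ± 11.98 CPM (log2 fold change −0.30 ± 0.09, adjusted p = 0.0212), and its call was lost in 7 of the 14 refits.

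The 12 largest increases were more often at 3′ ends than at starts, which was not tested. Of all gene-end regions, 2762 lay at starts and 632 at 3′ ends only. Beyond the 3′ end of Mtmr12, which encodes a myotubularin-related adaptor without phosphatase activity, the region at chr15:12272479-12273201 held 10.8, 7.29 and 6.67 CPM without Nanog and 30.9, 39.3 and 32.5 CPM with Nanog. Every library with Nanog was above every library without, and the log2 fold change was 2.11 ± 0.19 (adjusted p = 7.5e-09, edgeR quasi-likelihood test). Beyond the 3′ end of Abca14, an ABC transporter gene, signal was 14.9, 17.1 and 11.6 CPM without Nanog and 39.4, 50.5 and 46.6 CPM with Nanog. Again the lines did not overlap (log2 fold change 1.67 ± 0.17). Inside Pvalb, the parvalbumin gene, the region near the 3′ end held 14.5, 14.02 and 10.6 CPM without Nanog and 43.6, 43.99 and 34.4 CPM with Nanog, a log2 fold change of 1.67 ± 0.17. Of the 12 increases named by rule, these 3 and Hspa4 (an HSP110 chaperone), Mettl27 and Zmym6 were at 3′ ends, Olfr52, Gm52006 and Thbs2 were at starts, and Gpr139, Rnf138 and Cdo1 had their side unknown. Their log2 fold changes ran from 1.05 at Cdo1 to 2.11 at Mtmr12, and the 12 kept their direction and their call in all 14 refits.

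The largest decreases reached the same size. At Rbbp8nl the region at chr2:180289786-180290619 held 48.1, 31.4 and 38.2 CPM without Nanog and 10.6, 6.60 and 9.94 CPM with Nanog. The lowest library without Nanog was nearly 3 times the highest with Nanog, and the log2 fold change was −2.11 ± 0.19 (adjusted p = 4.3e-09, edgeR quasi-likelihood test). The region at chr7:127925318-127925677 lies by the ends of Prss8, a membrane serine protease gene, and Kat8, the H4K16 acetyltransferase MOF. It held 38.8, 28.9 and 38.4 CPM without Nanog and 11.2, 6.13 and 7.52 CPM with Nanog, a log2 fold change of −2.11 ± 0.20. Beyond the 3′ end of Armc9, a ciliary base protein gene, signal was 39.9, 35.9 and 41.97 CPM without Nanog and 10.8, 9.55 and 15.3 CPM with Nanog. No library overlapped at any of these regions. The 12 decreases named by rule also held Cebpa, a myeloid and liver transcription factor (12.97 ± 4.76 and 4.82 ± 1.75 CPM), Traf3, an adaptor of NF-kappaB signalling (19.5 ± 1.995 and 8.02 ± 2.17 CPM), Pdgfa, a growth factor ligand (12.99 ± 1.52 and 5.69 ± 0.75 CPM), and Cdkn1a, the CDK inhibitor p21 (12.6 ± 2.09 and 5.65 ± 0.71 CPM). Of the 37 regions called and at least 2-fold lower, 13 were at 3′ ends only, 11 at starts and 13 of unknown side.

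**Figure D4:**
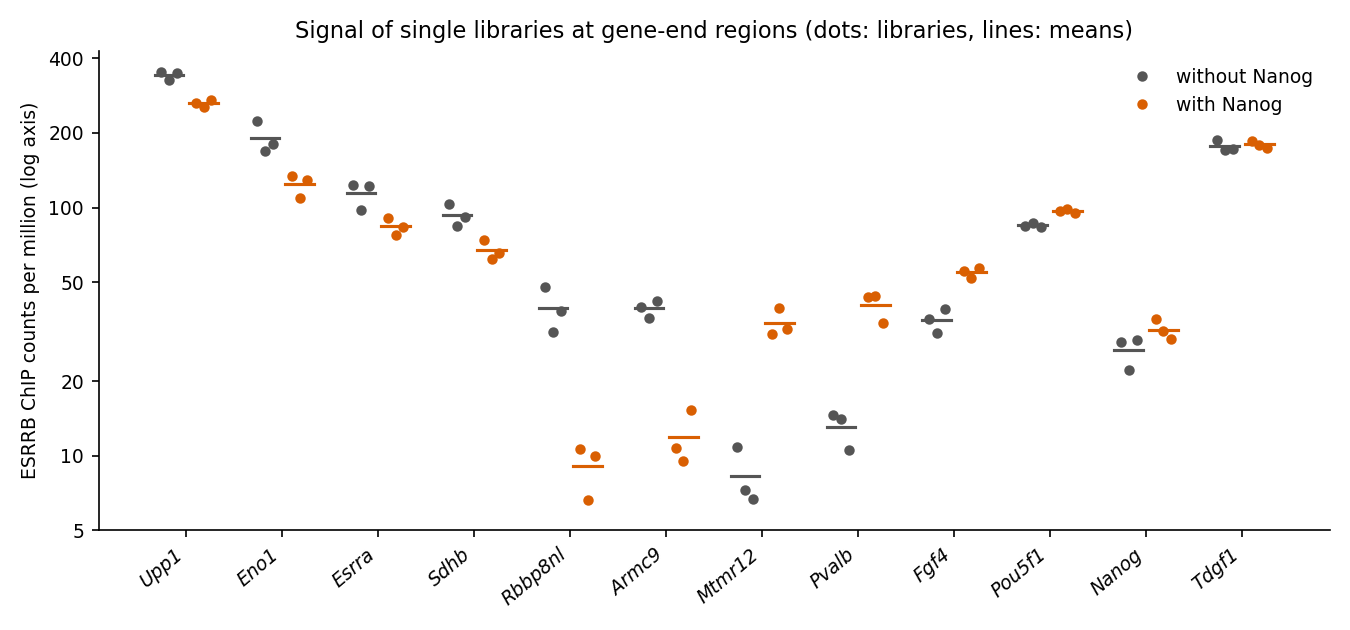
ESRRB ChIP signal in CPM (log axis) in each library (dots) with the mean of the 3 libraries (lines), without Nanog in grey and with Nanog in orange, at 12 gene-end regions. The lines do not overlap at Upp1 (342 against 263 CPM), Eno1, Esrra, Sdhb, Rbbp8nl, Armc9, Mtmr12, Pvalb, Fgf4, Pou5f1 and Nanog, and overlap at Tdgf1; Pou5f1 and Nanog were not called.

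Genes of energy metabolism had the largest shares with a gene-end region among the 14 gene lists described here. Of 76 subunits of the oxidative phosphorylation machinery, which couples electron transport to ATP synthesis, 68 (89.5%) had a gene-end region in both lists, against 19.7% of all protein-coding genes. The median signal at these genes was 43.8 CPM without Nanog and 45.7 CPM with Nanog, where the medians over all genes with a region were 19.4 and 19.2 CPM. By complex, 33 of 37 listed genes of complex I (NADH dehydrogenase) had one, all 4 of complex II (succinate dehydrogenase), all 9 of complex III (cytochrome bc1), 8 of 10 of complex IV (cytochrome c oxidase) and 13 of 15 of complex V (ATP synthase). The gene of cytochrome c, Cycs, had one as well, at 45.3 ± 6.51 and 46.1 ± 5.55 CPM. The strongest region of 56 of the 68 genes was at the start. Whether a list's share stands apart was not tested, and the lists were chosen with results of these data known.

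At the strongest region of each of the 68 genes, 1 was called higher, 10 lower and 57 were not called, with a median log2 fold change of −0.05. The share called was 16.2%, near the 13.9% of all 4312 genes with a region (118 higher, 480 lower and 3714 not called). The 10 called lower had from 62.7 to 212 CPM without Nanog. The split was 4 higher and 1 lower with TMM factors from the regions of both lists alone, and 2 higher and 3 lower with a loess offset on mean signal. At Sdhb, whose promoter is printed above, the region at chr4:140960892-140962100 held 104, 84.7 and 91.6 CPM without Nanog and 74.4, 62.4 and 65.9 CPM with Nanog. The lines did not overlap, and the log2 fold change was −0.46 ± 0.11 (adjusted p = 0.00359, edgeR quasi-likelihood test). Atp5c1, the gamma subunit of ATP synthase, shares its region with Kin. The region held 164, 141 and 163 CPM without Nanog and 128, 103 and 120 CPM with Nanog (log2 fold change −0.42 ± 0.10). It was not called with TMM factors from both lists or a loess offset. Atp5o, the subunit that joins the parts of ATP synthase, had 91.6 ± 13.1 and 67.2 ± 8.24 CPM, a call lost in 3 of the 14 refits. Ndufb4, with the extended site printed above, had 112 ± 3.47 and 86.3 ± 8.53 CPM. Ndufb8, another accessory subunit of complex I, was the gene called higher, from 18.98 ± 2.52 to 27.1 ± 2.43 CPM (log2 fold change 0.52, adjusted p = 0.0233). In complex II 3 of 4 genes were called lower (Sdha, Sdhb and Sdhd, with Sdhd in the region shared with Timm8b), and in complex III 0 of 9 were called.

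**Figure D5:**
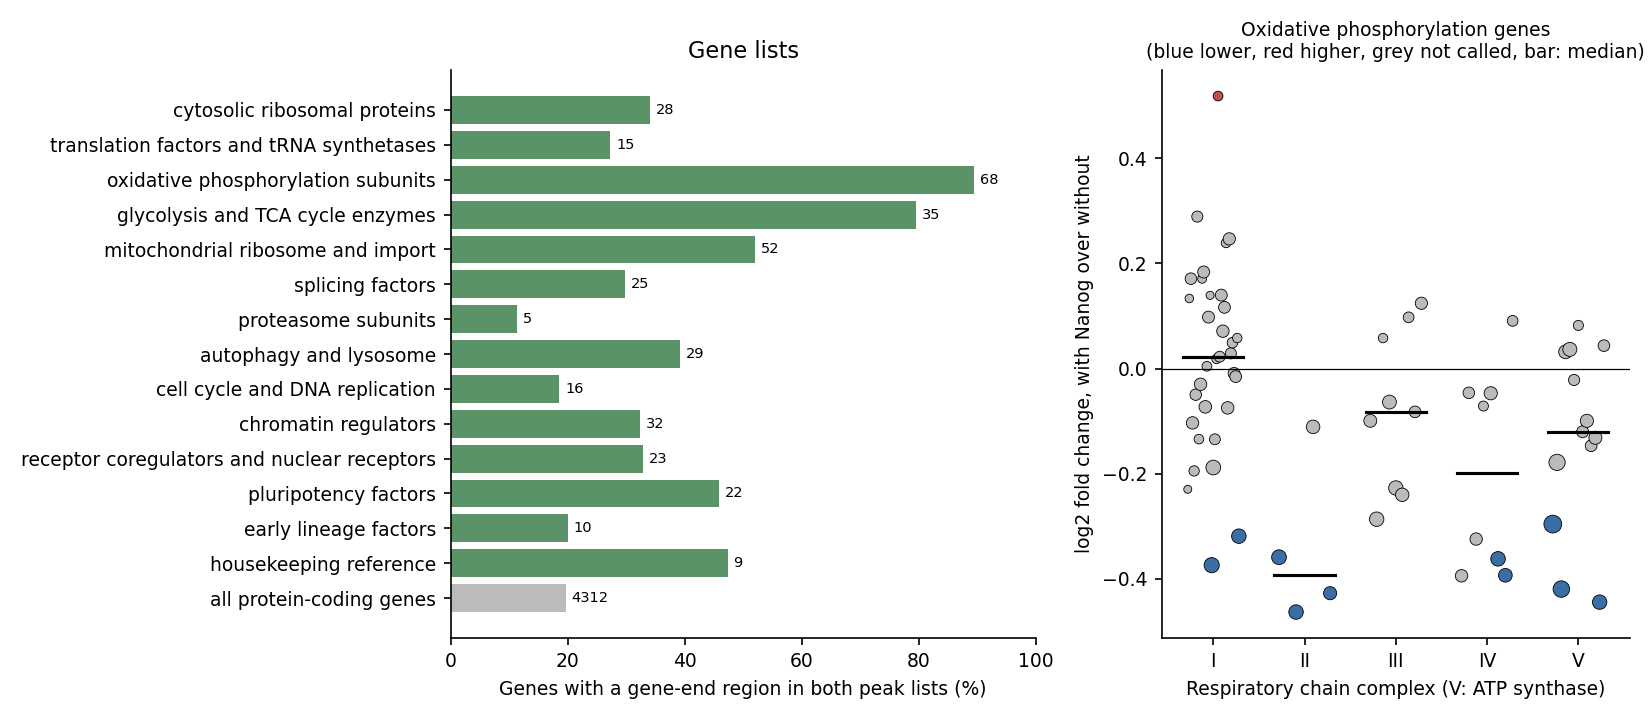
Left, percent of the genes of each list, and of all protein-coding genes, that have a gene-end region in both peak lists, with the number of such genes at the bar. Right, log2 fold change (with Nanog over without) of the strongest region of each oxidative phosphorylation gene by complex, with larger dots for higher signal without Nanog: the median is 0.02 in complex I and −0.39 in complex II.

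Glycolysis and the TCA cycle, which feed the respiratory chain, had the next largest share: 35 of 44 genes (79.6%) had a region, with 0 called higher, 4 lower and 31 not called, and 3 higher and 3 lower with TMM factors from both lists. Besides Eno1 the genes called lower were Ldhb, a lactate dehydrogenase subunit, Pgk1, phosphoglycerate kinase, and Pdk3, a pyruvate dehydrogenase kinase. Ldhb had 189, 154 and 163 CPM without Nanog and 126, 108 and 127 CPM with Nanog, with no overlap (log2 fold change −0.49 ± 0.10, adjusted p = 0.000859, edgeR quasi-likelihood test). Pgk1 had 241, 147 and 126 CPM without Nanog and 132, 62.97 and 64.9 CPM with Nanog. Library A was the highest of each line at Pgk1 and the lines overlapped (log2 fold change −0.98 ± 0.19), and DESeq2 did not call it. Ogdh, the 2-oxoglutarate dehydrogenase (120 ± 14.2 and 123 ± 9.33 CPM) and Cs, citrate synthase (68.1 ± 3.65 and 65.6 ± 5.56 CPM), were not called.

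Of 100 genes of the mitochondrial ribosome and protein import, 52 had a region, with 2 called higher, 8 lower and 42 not called, and 2 higher and 4 lower with TMM factors from both lists. Mrps23, a small-subunit protein of that ribosome, shares its region with Cuedc1. The region held 72.3, 50.8 and 61.6 CPM without Nanog and 32.8, 34.6 and 33.3 CPM with Nanog. The lines did not overlap (log2 fold change −0.87 ± 0.13, adjusted p = 2.2e-05, edgeR quasi-likelihood test). Tomm5, a subunit of the outer membrane translocase, went from 80.3 ± 3.12 to 56.3 ± 3.67 CPM, while Tomm40, its channel, and Mrps2 were called higher with log2 fold changes of 0.51 and 0.53.

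Other lists of basic cell functions were covered less. A region was found at 28 of 82 cytosolic ribosomal protein genes (34.2%; 0 higher, 3 lower), 15 of 55 translation factor and tRNA synthetase genes (27.3%; 0 called), 25 of 84 splicing factor genes (29.8%; 0 higher, 2 lower) and 5 of 44 proteasome genes (11.4%; 0 called). Among 74 autophagy and lysosome genes 29 had one (39.2%; 0 higher, 2 lower). Atp6v1e1, a subunit of the lysosomal proton pump, went from 47.0 ± 3.89 to 29.04 ± 4.64 CPM, with no overlap between the lines (log2 fold change −0.70 ± 0.14, adjusted p = 0.000647, edgeR quasi-likelihood test). Among 86 cell cycle and replication genes 16 had one (18.6%; 0 higher, 5 lower), including Cdc6, a replication licensing factor, at 27.6 ± 1.82 and 18.5 ± 1.94 CPM (call lost in 3 of the 14 refits), and E2f1, an activator of S phase genes, with a log2 fold change of −0.69. With TMM factors from both lists the cell cycle split was 2 higher and 1 lower and the ribosomal split 3 higher and 2 lower.

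Chromatin regulators had a region at 32 of 99 genes (32.3%; 0 higher, 1 lower, Kat8) and early lineage factors at 10 of 50 (20%; 0 called). At Gata3, a trophoblast factor, the value was 7.82 ± 1.14 and 10.95 ± 2.24 CPM (adjusted p = 0.120, edgeR quasi-likelihood test), and at Pdgfra, a receptor marking primitive endoderm, 11.5 ± 3.13 and 8.79 ± 0.70 CPM. A set of 19 genes in wide use as references had 9 with a region (47.4%; 0 higher, 5 lower), and only 1 of them was called lower with TMM factors from both lists. Tfrc, the transferrin receptor, had 121 ± 17.1 and 89.0 ± 6.73 CPM, and Ppia, cyclophilin A, 79.4 ± 7.24 and 59.4 ± 7.44 CPM, with calls lost in 1 and 5 of the 14 refits.

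Among 70 nuclear receptor and coregulator genes 23 had a region (32.9%; 0 higher, 3 lower). Esrra, the gene of the related receptor ESRRA, had the strongest, at chr19:6921039-6922710 across its start and near an end of Catsperz. The region held 124, 97.6 and 122 CPM without Nanog and 90.8, 77.7 and 83.3 CPM with Nanog. The lines did not overlap (log2 fold change −0.45 ± 0.11, adjusted p = 0.00386, edgeR quasi-likelihood test), and TMM factors from both lists gave −0.28 and no call. Med23, a Mediator subunit, went from 90.9 ± 14.9 to 59.5 ± 9.98 CPM, and Nr1d2, the REV-ERB beta repressor, from 72.7 ± 9.04 to 53.9 ± 7.12 CPM, a call lost in 4 of the 14 refits. Esrrg, the third receptor of the family, had 34.6 ± 3.99 and 33.5 ± 1.30 CPM, and Nr0b1, the DAX1 corepressor, 34.5 ± 2.67 and 39.9 ± 3.74 CPM; neither was called.

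Of 48 pluripotency genes matched, 22 had a gene-end region in both lists (45.8%), with 2 called higher, 1 lower and 19 not called, and a median log2 fold change of 0.05. With TMM factors from both lists 8 were called higher and 0 lower, and with a loess offset 5 and 0. At Fgf4, the FGF ligand that drives exit from naive pluripotency, the region inside the gene near its 3′ end (chr7:144863642-144864978) held 35.4, 31.1 and 39.02 CPM without Nanog and 55.6, 52.1 and 57.1 CPM with Nanog. Every library with Nanog was higher, with a log2 fold change of 0.63 ± 0.13 (adjusted p = 0.000719, edgeR quasi-likelihood test). Tcl1, an AKT coactivator, had 9.32, 12.3 and 10.6 CPM without Nanog and 12.98, 21.5 and 17.5 CPM with Nanog (log2 fold change 0.68 ± 0.21), a call that DESeq2, thinning to equal depth and leaving out any of 4 libraries removed. Fbxo15, a marker of embryonic stem cells, had the stronger signal of 166 ± 11.3 and 139 ± 6.35 CPM, and its call as lower (adjusted p = 0.0467) was lost in 11 of the 14 refits.

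At Nanog, Pou5f1, Tfcp2l1, Klf4 and Klf2 the gene-end regions were not called. The Nanog region at chr6:122707046-122707732, over the promoter printed above, held 28.7, 22.2 and 29.2 CPM without Nanog and 35.4, 31.7 and 29.6 CPM with Nanog. The lowest library with Nanog was just above the highest without, and the log2 fold change was 0.27 ± 0.15 (adjusted p = 0.225, edgeR quasi-likelihood test), rising to 0.44 with a call under TMM factors from both lists. Pou5f1, which encodes OCT4, had its stronger region upstream of the start, with 84.3, 86.95 and 83.7 CPM without Nanog and 96.8, 98.8 and 94.8 CPM with Nanog. These did not overlap either, but the log2 fold change of 0.19 ± 0.10 missed the threshold (adjusted p = 0.203), while TMM factors from both lists and a loess offset called it. Tfcp2l1, a naive pluripotency factor, had 54.4 ± 4.92 and 56.1 ± 1.89 CPM, and Klf4, a partner of that network, 10.4 ± 0.58 and 11.6 ± 0.47 CPM at the stronger of its 2 regions. Klf2 had 8.64 ± 2.20 and 6.50 ± 0.84 CPM at its 3′ end. Esrrb, Sox2 and Actb had no gene-end region in both lists.

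At 4 genes 1 gene-end region was called higher and another lower, and 3 of these genes, chosen after their values were seen, are described. At Bub1b, a spindle checkpoint kinase, the region at the start went from 37.6 ± 0.51 to 27.3 ± 2.11 CPM (log2 fold change −0.46 ± 0.14), and the region at the 3′ end from 17.4 ± 1.66 to 26.2 ± 1.53 CPM (0.61 ± 0.16). The call at the start was lost in 6 of 14 refits. Mynn, a zinc finger gene, showed the same arrangement, with 43.1 ± 8.26 and 28.6 ± 3.18 CPM at the start and 19.4 ± 5.89 and 30.4 ± 2.69 CPM at the 3′ end. At Adgrg5, an adhesion receptor gene, both regions were near the start, and 1 went from 33.6 ± 3.85 to 20.9 ± 0.73 CPM and the other from 13.57 ± 1.253 to 23.4 ± 1.28 CPM. The adjusted p-values of these 6 regions lay between 0.00116 and 0.0182 (edgeR quasi-likelihood test).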

How the data were processed

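The authors deposited a table of counts, with a row for each region and a column for each of the 6 ChIP libraries, and a list of peak coordinates for each line. Per the submitters' processing notes, the tools were bcl2fastq 2.19.1, Bowtie2, SAMtools 1.4.1, deepTools, MACS2 and bedtools 2.26.0 with the mm10 build. The counting tool, peak threshold and handling of duplicates were not stated there. Peak lists hold 34956 peaks without Nanog and 85537 with Nanog, 1 list per line rather than per library. Raw counts were tested in edgeR 4.0.16 (R 4.3.3) with TMM scaling, filterByExpr, glmQLFit and glmQLFTest, line as the only term, and Benjamini-Hochberg adjustment over the 84892 regions kept. CPM values use the TMM library sizes, log2 fold changes are with Nanog over without, and SDs are over 3 libraries. The count columns carry letters A, B and C, which the labels do not tie to replicate numbers, so a column is a library of its line and no more. In counts simulated for this comparison, 12 of 67 regions with a 1.5-fold change and 35 of 67 with a 2-fold change were called. So were 65 of 66 with a 4-fold change and 6 of 84692 unchanged regions. The changed regions were drawn at random from all regions tested, whose median signal was 6.75 CPM, against 18.5 CPM at gene-end regions. Far fewer regions were changed than were called in the data, so these shares do not give the sensitivity at gene-end regions.

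Regions were placed against RefSeq gene spans (GRCm38.p6), a gene counting once by its strongest region in a list. The 14 gene lists, the motifs and the regions themselves were chosen with earlier results of these data known. Regions were named by rule: the 10 of highest mean CPM, the 12 largest increases and 12 largest decreases among called regions of at least median signal with no overlap between lines, up to 3 genes of smallest adjusted p per list, and the genes Esrrb, Nanog, Klf4, Klf2, Pou5f1, Sox2, Esrra, Tfcp2l1, Actb and Gapdh. Clec2d, Mtrf1l, Cycs, Ndufb4, Ndufb8, Sdha, Sdhd, Timm8b, Pdk3, Ogdh, Cs, Tomm40, Mrps2, E2f1, Esrrg, Nr0b1, Mynn, Adgrg5 and the second region of Bub1b were named after their values were seen. DESeq2 1.42.0, 3 other scalings, 2 count filters, a block by letter, thinning to the smallest total, other distances and overlaps, and leaving out each library were tried. A few genes that the rule names are not reported here.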

Additional observations from a re-analysis of the deposited data

How the results depend on the processing

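Against 124 higher and 469 lower gene-end regions, DESeq2 called 79 and 291, TMM factors from the regions of both lists 344 and 198, a distance of 500 bp 66 and 262 and of 2 kb 225 and 821. Overlap of at least 50% of the region with each list left 42 higher, and thinning to the smallest total 291 lower. Without 1 library at a time, the range was 74 to 160 higher and 225 to 622 lower. The median log2 fold change was 0.0801 with TMM factors from both lists, −0.167 with overlap of 50% of the region, and −0.116 to −0.0436 without 1 library. The share called farther from gene ends minus that at gene ends, 15.9 points, was 11.8 with DESeq2, 12.7 with TMM factors from both lists, 17.3 with a mean count of at least 50, 10.8 thinned, 17.6 at 500 bp, 13.1 at 2 kb, 14 with overlap of 50% of the region and 11.1 to 13.7 without 1 library. The share at 3′ ends only minus that at starts, 12.2 points, was 7.8 with DESeq2, 8.56 thinned and 7.38 to 11.1 without 1 library. Why the values moved was not tested; the rules of distance and overlap admit other numbers of regions, and thinning and leaving out use fewer reads or libraries.

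With the column letter as a replicate block, 213 were called higher and 684 lower, and the gap between farther and gene-end regions was 18 points. The letters are not stated to mark pairs. Deviations of same-letter libraries from their line means correlated at 0.083 (A), 0.223 (B) and 0.128 (C) over all regions, against −0.159 to 0.045 for unlike letters, so each library correlated best with its own letter while A stayed under 0.1.

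Of the 51 named regions that were called, 0 reversed in 14 refits and 16 lost the call in at least 1. Of the 29 not called, 12 gained a call and 9 changed sign. The log2 fold change turned to 0.0247 (Akap1), 0.104 (Mcl1) and 0.0702 (the weaker Klf4 region) with TMM factors from both lists, to 0.0143 (Mllt6), 0.0934 (Akap1), 0.0261 (Gapdh), 0.018 (Pde8a) and 0.151 (Mcl1) with a loess offset, and to −0.0131 (Adrm1) and 0.036 (Klf4) when thinned. With 1 library left out it reached a highest value of 0.0388 at the weaker Pou5f1 region (lowest −0.605), a lowest of −0.102 at Adrm1 (highest 0.159), a highest of 0.0399 at Klf4 (lowest −0.224) and a lowest of −0.0739 at the Gapdh region beyond its 3′ end (highest 0.0993). All 593 called gene-end regions kept their sign in each refit that tested them, and from 295 (without library B with Nanog) to 593 (the block) kept the call. The libraries without Nanog were the shallower, so the smallest total, 2734338 counts, limits the weaker regions.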

Other observations

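Around the start base itself, the share called differed between its sides. Of 208 gene-end regions centred up to 100 bases upstream of a start 7 were called (3.37%), and of 213 centred in the first 100 bases inside the gene 29 were called (13.6%). From 100 to 200 bases the shares were 7.91% upstream and 6.34% inside, and over the whole 1 kb they were 11.6% and 12.6%. The median signal of the innermost groups was 18.2 and 19.6 CPM. These shares were seen in the data first and were not tested.

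Among promoter windows that overlapped a region called lower, 6 of 212 (2.83%), over 5 regions, held the exact ERR element. It was in 13 of 2091 (0.62%) for regions not called and 0 of 53 for regions called higher. These are few windows, and the shares were not tested. The core site was in 25.5%, 19.9% and 20.8%. In the 57 windows of oxidative phosphorylation genes the NRF1 core was in 17.5%, the YY1 core in 12.3% and the ACTACA core of ZNF143 and THAP11 in 26.3%, where all windows that overlapped a gene-end region had 6.20%, 4.08% and 9.85%. The GC box was in 38.6% of them against 68.6%, the ETS site in 8.77% against 9.13% and the CCAAT box in 40.4% against 39.0%. The exact ERR element was in only 1 of these 57 windows (1.75% against 0.81%) and the extended site in 2 (3.51% against 1.87%). The core site was in 24.6% against 20.4%. Of the 34 windows of glycolysis and TCA cycle genes, 0 held the exact element and 1 the extended site.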
